A study of Mus musculus with 18 samples.

Results

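The p53 and damage checkpoint genes are 9 mouse genes, chosen by symbol and matched to their Entrez identifiers: *Trp53*, *Mdm2*, *Mdm4*, *Cdkn1a*, *Atm*, *Atr*, *Chek1*, *Chek2* and *Trp53bp1*. All 9 were found among the 27179 genes counted, and 9 of 9 were among the 17989 genes that passed the filter on low counts. The series holds 18 libraries, 3 from each of 6 populations sorted from unperturbed C57BL/6 mice, whose age the methods give as 8 to 12 weeks. From the tracheas of mice 1, 2 and 3 came NGFR-positive basal cells (BSCs) and NGFR-negative non-basal cells. From the lungs of mice 4, 5 and 6 came EpCAM-positive CD104-positive luminal airway cells with high CD24 (airway CD24hi, enriched for ciliated cells) or low CD24 (airway CD24lo, enriched for club cells), EpCAM-positive CD104-low alveolar cells, and EpCAM-negative non-epithelial cells. No population was irradiated or given a drug, so the values describe resting cells after tissue digestion and sorting. Trachea was digested with dispase and trypsin and lung with collagenase, and trachea and lung came from different mice, so organ, digestion and animal cannot be told apart in a comparison between them.

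DNA double-strand breaks activate the kinase ATM, and stretches of single-stranded DNA at stalled replication forks activate ATR. ATM and ATR pass the signal to the checkpoint kinases CHK2 (*Chek2*) and CHK1 (*Chek1*), while 53BP1 (*Trp53bp1*) assembles on chromatin beside the break and favours its repair by end joining. These kinases stabilise the transcription factor p53 (*Trp53*), which switches on *Cdkn1a*, the gene of the cell cycle inhibitor p21, and *Mdm2*, the gene of the ubiquitin ligase that degrades p53. MDM4 is a relative of MDM2 that binds p53 and blocks its activity, and much of this control acts on protein stability and phosphorylation, which RNA counts do not measure.

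Levels are given per length, as RPKM (reads scaled to the length of the gene in kilobases and to the TMM-adjusted size of the library), and differences as log2 fold changes from edgeR's quasi-likelihood test, with p-values adjusted over all genes tested. The libraries held 29317215 to 32993621 counted reads in trachea and 9811503 to 13208897 in lung. The tracheal totals exceed the reads per sample that the methods state, and the series text names airway cells of lungs where the labels give trachea, so the organ is given here as labelled. The sorted populations carried the markers of their labels: the summed level of 5 basal cell markers was 1864 to 1944 RPKM in BSCs, that of 5 ciliated cell markers was 976 to 1038 RPKM in airway CD24hi cells against 83.6 to 176 RPKM in airway CD24lo cells, and that of 5 fibroblast markers was 6709 to 6996 RPKM in EpCAM-negative cells. Club cell markers were not absent from airway CD24hi cells, at 73384 to 97311 RPKM. In the 4 tracheal libraries of mice 2 and 3, *Xist* was at 610 to 897 CPM and Y-linked genes were at most at 0.105 CPM, whereas the methods name males and the other 14 libraries carried Y-linked reads. For the 9 genes and the medians of the gene lists, results that rest on tracheal libraries are therefore also given for mouse 1 alone, as values without a test. By counts over all genes, replicate 1 of BSCs, non-basal, airway CD24hi and airway CD24lo cells and replicate 2 of alveolar cells stood apart from the other libraries of their group, with a chi-square per degree of freedom of 21.1 to 39.6 against each of them, where the other pairs had 3.50 to 7.50. In a bulk sample, fewer cells of a type and less RNA per cell cannot be told apart.

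MDM2 and p21 are the textbook transcriptional targets of p53 among the 9 genes, and the start regions of these genes and of *Trp53* itself are shown because they held a p53 decamer, the 10-base element that p53 binds in pairs. RefSeq (build GRCm38.p6) listed 11 start sites for the 9 genes, and the window from 250 bases before to 50 after each was searched on both strands. A decamer was found in 3 of 11 windows, against 7.558% of 22267 windows of counted genes. The window of the upstream start of *Cdkn1a* (chr17:29090729-29091028, plus strand) held 2 decamers, 73 and 51 bases before the start at their first base, and a pair of decamers with a spacer of at most 13 bases was found in 0.04% of all windows. The window of *Mdm2* (chr10:117710709-117711008, minus strand) held 1 decamer 186 bases before the start, and that of *Trp53* (chr11:69580109-69580408, plus strand) held 1 decamer 75 bases before it. Neither of these windows held a pair of decamers, and the rest of each gene, outside the 11 windows, was not searched. The windows read 5′ to 3′ on the strand of the gene, with the decamers in capitals:

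Cdkn1a: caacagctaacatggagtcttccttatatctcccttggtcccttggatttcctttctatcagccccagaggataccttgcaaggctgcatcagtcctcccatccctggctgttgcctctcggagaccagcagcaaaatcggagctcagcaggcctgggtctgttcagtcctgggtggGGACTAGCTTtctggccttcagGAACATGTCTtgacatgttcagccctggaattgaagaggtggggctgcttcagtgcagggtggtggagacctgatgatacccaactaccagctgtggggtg

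Mdm2: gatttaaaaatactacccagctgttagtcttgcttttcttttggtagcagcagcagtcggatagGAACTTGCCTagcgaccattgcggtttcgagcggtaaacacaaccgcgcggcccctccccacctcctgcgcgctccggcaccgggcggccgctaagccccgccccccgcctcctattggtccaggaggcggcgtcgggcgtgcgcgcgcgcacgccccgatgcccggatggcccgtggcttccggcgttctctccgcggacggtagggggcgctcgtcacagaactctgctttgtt

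Trp53: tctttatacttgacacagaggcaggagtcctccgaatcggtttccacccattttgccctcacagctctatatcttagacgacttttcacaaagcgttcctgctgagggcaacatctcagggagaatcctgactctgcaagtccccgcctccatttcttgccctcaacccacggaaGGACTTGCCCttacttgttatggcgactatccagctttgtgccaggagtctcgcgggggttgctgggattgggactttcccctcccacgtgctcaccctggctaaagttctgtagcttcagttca

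A match of letters is a description of the sequence, and occupancy by p53 was not measured.

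*Trp53* (chromosome 11, 69580348 to 69591873, mm10), the gene of p53, was highest in BSCs and lowest in airway CD24hi cells. In the 3 BSC libraries it stood at 31.5, 33.2 and 34.0 RPKM, and in the non-basal libraries of the same mice at 16.2, 17.2 and 17.4 RPKM. In lung it was at 23.8, 22.6 and 19.97 RPKM in EpCAM-negative cells, 19.5, 16.9 and 13.5 RPKM in airway CD24lo cells, 11.1, 13.3 and 12.3 RPKM in alveolar cells and 11.3, 7.38 and 7.16 RPKM in airway CD24hi cells. The BSC libraries lay above all others and the EpCAM-negative libraries came next without overlap, whereas non-basal overlapped airway CD24lo cells and alveolar overlapped airway CD24hi cells. The population means thus spanned 8.61 ± 2.34 RPKM (SD, n = 3) to 32.9 ± 1.25 RPKM (SD, n = 3), a 3.82-fold range whose log2 size stood at a percentile of 50.5 among all genes tested.

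*Mdm2* (chromosome 10, 117688875 to 117710758) took the opposite end. Airway CD24hi libraries held 87.4, 102 and 101 RPKM of this ligase gene, and every other library held between 18.5 and 33.4 RPKM. BSCs averaged 32.5 ± 1.42 RPKM, airway CD24lo cells 26.6 ± 5.84 RPKM and non-basal cells 23.3 ± 1.73 RPKM (SD, n = 3 each), with overlap between neighbours. EpCAM-negative and alveolar cells followed at 19.5 ± 0.674 and 19.3 ± 0.822 RPKM (SD, n = 3 each) and overlapped one another. The group with the lowest *Trp53* level was therefore the one with the highest level of the gene for its ubiquitin ligase.

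*Mdm4* (chromosome 1, 132986105 to 133030587) varied least among the 9 genes, with a range between population means at a percentile of 8.52 among all genes tested. BSCs held 24.5, 25.3 and 30.4 RPKM, above the other 15 libraries, which held 14.8 to 21.97 RPKM. The other 5 population means, from 17.0 ± 1.74 to 19.6 ± 2.75 RPKM (SD, n = 3 each), overlapped from neighbour to neighbour. The *Mdm2* and *Mdm4* transcripts had mean ratios per length of 1.01 to 1.40 in 5 populations, with single libraries from 0.937 in alveolar to 2.00 in airway CD24lo cells, and of 5.07 ± 0.735 (SD, n = 3) in airway CD24hi cells.

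*Cdkn1a* (chromosome 17, 29090979 to 29100722), the gene of p21, was the most abundant of the 9 per length. It reached 145, 124 and 123 RPKM in airway CD24hi cells. EpCAM-negative libraries held 79.8, 81.2 and 76.1 RPKM and alveolar libraries 54.1, 62.7 and 79.6 RPKM, with overlap. BSC libraries held 42.9, 45.7 and 49.1 RPKM, airway CD24lo libraries 53.5, 39.1 and 31.9 RPKM and non-basal libraries 28.3, 31.1 and 30.0 RPKM. Airway CD24hi cells thus stood clear at the top and non-basal cells at the bottom, with the EpCAM-negative and alveolar libraries above those of BSCs and airway CD24lo cells, which overlapped each other.

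**Figure D1:**
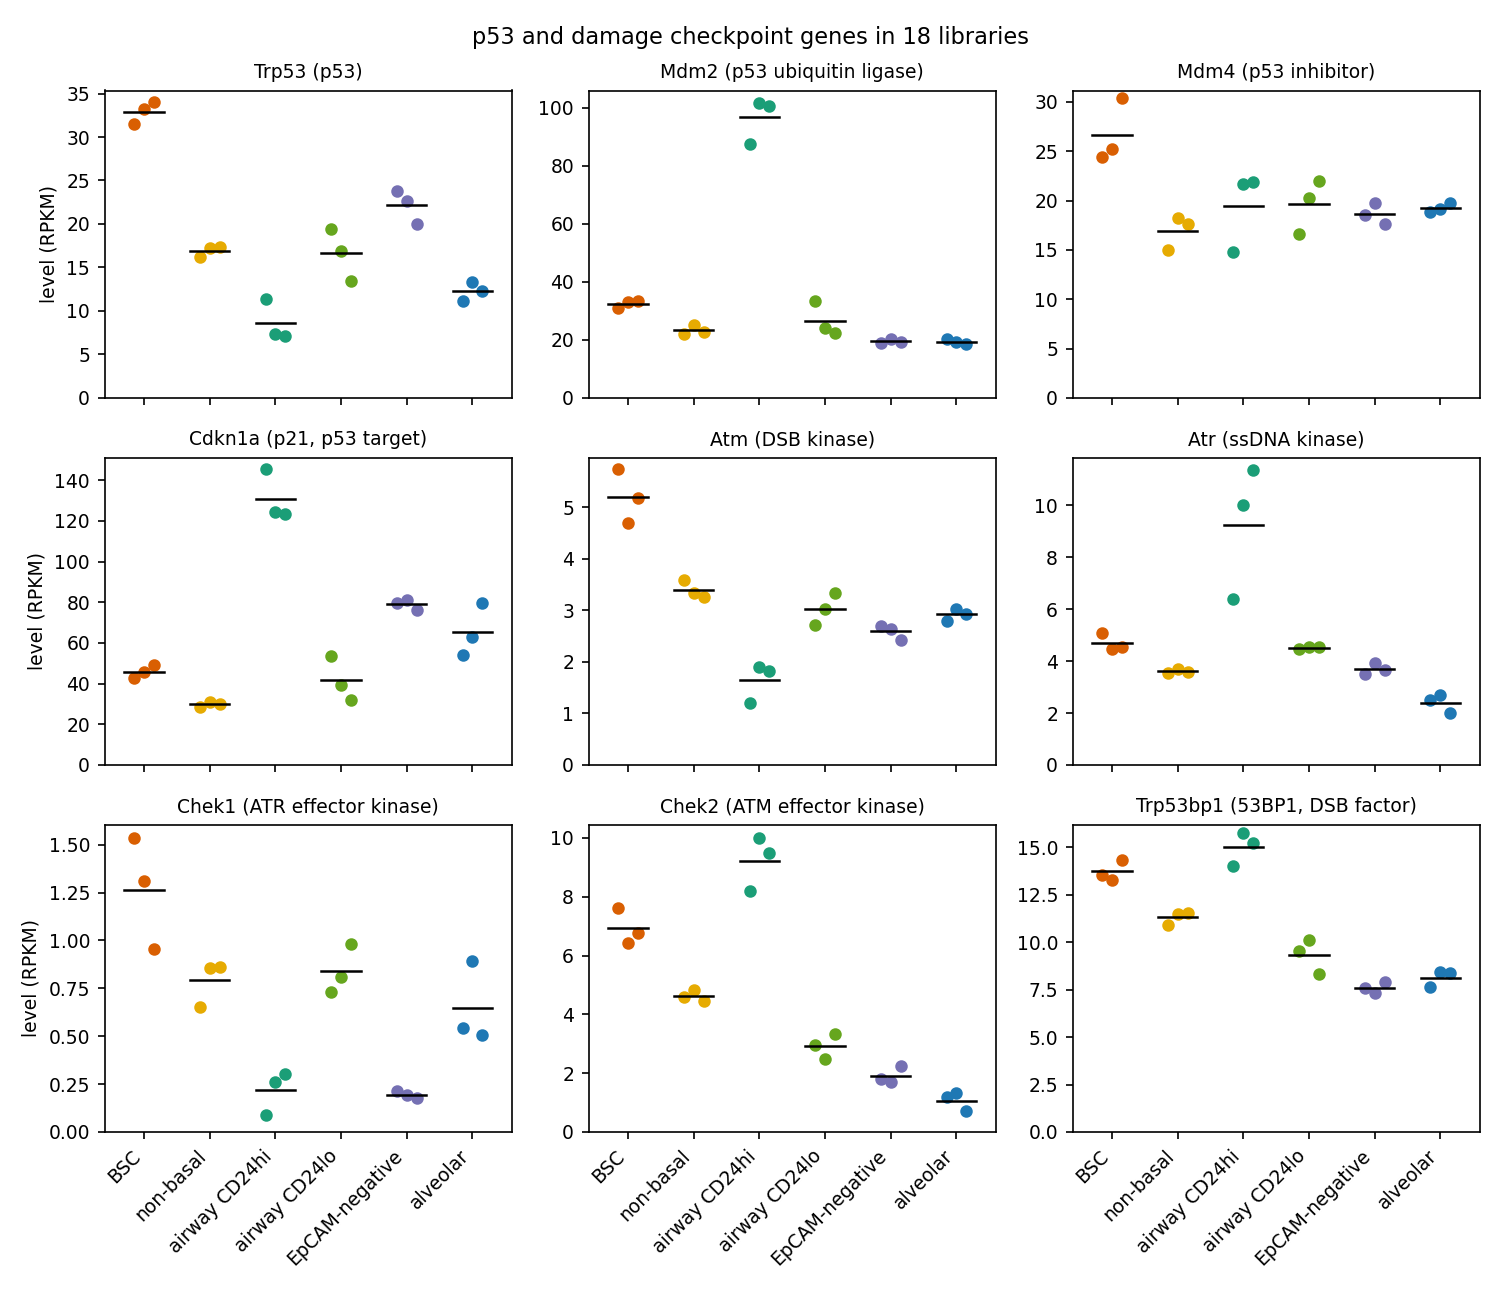
Level per length (RPKM, linear axes from 0) of the 9 genes in each of the 18 libraries, by population, with dots for libraries in the order of replicates 1 to 3 and lines for means. *Trp53*, *Mdm4*, *Atm* and *Chek1* have their highest mean in BSCs, and *Mdm2*, *Cdkn1a*, *Atr*, *Chek2* and *Trp53bp1* have it in airway CD24hi cells.

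The apical kinases split in the same way. *Atm* (chromosome 9, 53437122 to 53536828), which answers double-strand breaks, was at 5.74, 4.70 and 5.18 RPKM in BSCs and at 3.60, 3.33 and 3.26 RPKM in non-basal cells. It was lowest in airway CD24hi cells, at 1.21, 1.90 and 1.83 RPKM, below the 2.42 to 3.33 RPKM of the other 9 lung libraries. *Atr* (chromosome 9, 95857597 to 95953217), which answers single-stranded DNA, was by contrast highest in airway CD24hi cells, at 6.38, 10.03 and 11.4 RPKM. BSC libraries held 4.45 to 5.09 RPKM and airway CD24lo libraries 4.48 to 4.55 RPKM of *Atr*, and alveolar cells were lowest at 2.51, 2.71 and 1.99 RPKM. The airway CD24hi libraries of *Atr* were all above every other library, with replicate 1 lowest. Of the exonic bases of *Atr*, 5.78% are shared with other genes, among them the opposite-strand genes 1700065D16Rik and Gm16794, which held at most 11 and 37 reads in any library.

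The effector kinases also diverged. *Chek1* (chromosome 9, 36708482 to 36726658), the ATR effector used in S phase, was a low transcript, with 65 to 183 reads in tracheal and 4 to 33 reads in lung libraries. It was at 1.53, 1.31 and 0.956 RPKM in BSCs, and BSC, airway CD24lo, non-basal and alveolar libraries formed a chain of overlapping ranges down to 0.505 RPKM. Airway CD24hi libraries held 0.0889, 0.262 and 0.301 RPKM and EpCAM-negative libraries 0.213, 0.194 and 0.179 RPKM, clear of the rest. *Chek2* (chromosome 5, 110839800 to 110874140), the ATM effector, instead separated all 6 populations without overlap, the only 1 of the 9 genes to do so. Its means ran from 9.22 ± 0.926 RPKM in airway CD24hi cells through 6.94 ± 0.622 in BSCs, 4.62 ± 0.187 in non-basal, 2.92 ± 0.420 in airway CD24lo and 1.90 ± 0.292 in EpCAM-negative cells to 1.07 ± 0.310 RPKM in alveolar cells (SD, n = 3 each). Its range between populations, at a percentile of 68.9, was the widest of the 9.

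*Trp53bp1* (chromosome 2, 121194835 to 121296354), the gene of 53BP1, was at 14.0, 15.8 and 15.2 RPKM in airway CD24hi cells and at 13.5, 13.3 and 14.3 RPKM in BSCs, with overlap. Non-basal cells held 10.9, 11.5 and 11.5 RPKM, and airway CD24lo, alveolar and EpCAM-negative libraries together held 7.31 to 10.1 RPKM. *Tubgcp4*, on the opposite strand, shares 15.04% of the exonic bases of *Trp53bp1*, and strand was not used in the counting as far as the sources say. *Tubgcp4* was at 10.6 ± 0.381 RPKM in BSCs, 7.43 ± 0.365 in non-basal, 8.63 ± 0.153 in alveolar and 6.72 ± 0.685 RPKM in airway CD24hi cells (SD, n = 3 each). It was thus higher in BSCs than in non-basal cells, as *Trp53bp1* was, and lower in airway CD24hi than in alveolar cells, where *Trp53bp1* was higher, and its part was not tested.

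The first comparison asked how BSCs differ from the non-basal cells of the same tracheas. All 9 genes were higher in BSCs at an adjusted p under 0.05 (edgeR), where 21.9% of genes tested were called higher, 26.2% lower and 48.2% in either direction. *Trp53* led with a log2 fold change of 0.96 (SE 0.14, adjusted p = 2.63e-05), a fold of 1.94, and it was higher in 3 of 3 mice. *Chek1* differed by 0.68 (SE 0.24, adjusted p = 0.0295), *Mdm4* by 0.65 (SE 0.14, adjusted p = 0.000714), *Cdkn1a* by 0.62 (SE 0.15, adjusted p = 0.00266) and *Atm* by 0.62 (SE 0.13, adjusted p = 0.000565). These 4 genes thus rose by 1.53-fold to 1.599-fold, less than *Trp53*. *Chek2* rose by 0.59 (SE 0.14), *Mdm2* by 0.48 (SE 0.12), *Atr* by 0.38 (SE 0.15, adjusted p = 0.0447) and *Trp53bp1* by 0.28 (SE 0.08, adjusted p = 0.00816) on the log2 scale. Every member was higher in 3 of 3 mice, and the median of the 9 log2 fold changes was 0.62 beside -0.02 over all genes tested.

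Of these rises, those of *Atr*, *Trp53bp1* and *Chek1* depended on the setting. A correction for gene length took *Atr* to 0.14 (adjusted p = 0.376) and *Trp53bp1* to 0.04 (adjusted p = 0.695), the block for mouse took *Atr* to an adjusted p of 0.0508, and *Atr* missed the threshold whichever of the 6 libraries was left out (edgeR). *Chek1* missed it without BSC replicate 1 (0.52, adjusted p = 0.133), without BSC replicate 2 (0.65, adjusted p = 0.078) and without non-basal replicate 1 (0.56, adjusted p = 0.119) (edgeR). Mouse 1 alone leaves 1 library a population, so its values are given without a test. All 9 log2 fold changes were above 0 there (0.31 to 1.23), with *Trp53* at 0.96. In mice 2 and 3 alone, 6 of 9 passed, all higher, with *Trp53* at 0.96. Over all genes that fit called 6968, of which 3134 were higher and 3834 lower. Early response and heat shock genes of tissue dissociation moved with this comparison, with 10 of 14 higher in BSCs and summed levels of 11849 to 15362 RPKM against 6377 to 9085 RPKM in non-basal cells, and 10 of 10 proliferation markers were higher, with sums of 109.6 to 121 RPKM against 63.9 to 65.2 RPKM. Leukocyte markers had sums of 304 to 604 RPKM in BSCs and 6401 to 9057 RPKM in non-basal cells, with 0 of 5 higher and 2 lower, and most of the non-basal sum was *Lyz2*. Alveolar type 2 markers were lower in 4 of 5 with 0 higher, with sums of 26.1 to 35.4 RPKM against 375 to 380 RPKM. Fibroblast markers were lower in 4 of 5 and higher in 1, but their sums were higher in BSCs, at 159 to 163 RPKM against 28.8 to 45.4 RPKM. The part of these lists in the rises was not tested.

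BSCs were next compared with alveolar cells, the comparison at the centre of the study, which asked whether these progenitors differ in their handling of DNA damage. Of the 9 genes 8 were higher in BSCs and *Cdkn1a* was lower, where 66.1% of genes tested were called, 30.5% higher and 35.6% lower. *Chek2* differed most, with a log2 fold change of 2.69 (SE 0.18, adjusted p = 4.27e-10, edgeR), a fold of 6.44 between 6.94 and 1.07 RPKM. *Trp53* followed at 1.43 (SE 0.15, adjusted p = 1.84e-07), 2.69-fold higher in BSCs. The kinase genes *Atr* (0.96, SE 0.16), *Chek1* (0.96, SE 0.28) and *Atm* (0.83, SE 0.13) were 1.78-fold to 1.95-fold higher, and *Trp53bp1* (0.75, SE 0.08) and *Mdm2* (0.75, SE 0.12) 1.69-fold and 1.68-fold higher. *Mdm4* showed the smallest rise, of 0.47 (SE 0.14, adjusted p = 0.00621), and for these 8 genes the BSC libraries lay above all alveolar libraries.

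*Cdkn1a* went the other way, at -0.51 (SE 0.15, adjusted p = 0.00732, edgeR), 1.43-fold lower in BSCs. This call was lost when libraries were scaled by their size without TMM (-0.10, adjusted p = 0.596) and without alveolar replicate 3, whose 79.6 RPKM was the highest of the group (-0.35, adjusted p = 0.0644). Mouse 1 as the only tracheal mouse leaves 1 BSC library, so its values are given without a test. *Cdkn1a* was then at -0.61, *Mdm4* at 0.35 and the other 7 genes at 0.68 to 2.82. Scaling by size without TMM moved the median of all genes from -0.09 to 0.29 and the share called higher among called genes from 46.1% to 64.5%. The dissociation list was also higher in BSCs here, in 11 of 14 genes with 2 lower, and had sums of 4337 to 5539 RPKM in alveolar cells. Of 10 proliferation markers 8 were higher and 1 lower. Markers of other cells moved too, with 5 of 5 endothelial, 4 of 5 pericyte and 3 of 5 leukocyte markers lower in BSCs and 0 higher. Of 5 fibroblast markers 4 were lower and 1 higher. Leukocyte markers had sums of 304 to 604 RPKM in BSCs and 36539 to 44271 RPKM in alveolar cells. Such a sum can rest on 1 gene. In airway CD24hi cells, with leukocyte sums of 284 to 404 RPKM, 2 of 5 of these markers were lower than in alveolar cells. The median log2 fold change of the leukocyte markers there was 0.25. The part of these lists was not tested.

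**Figure D2:**
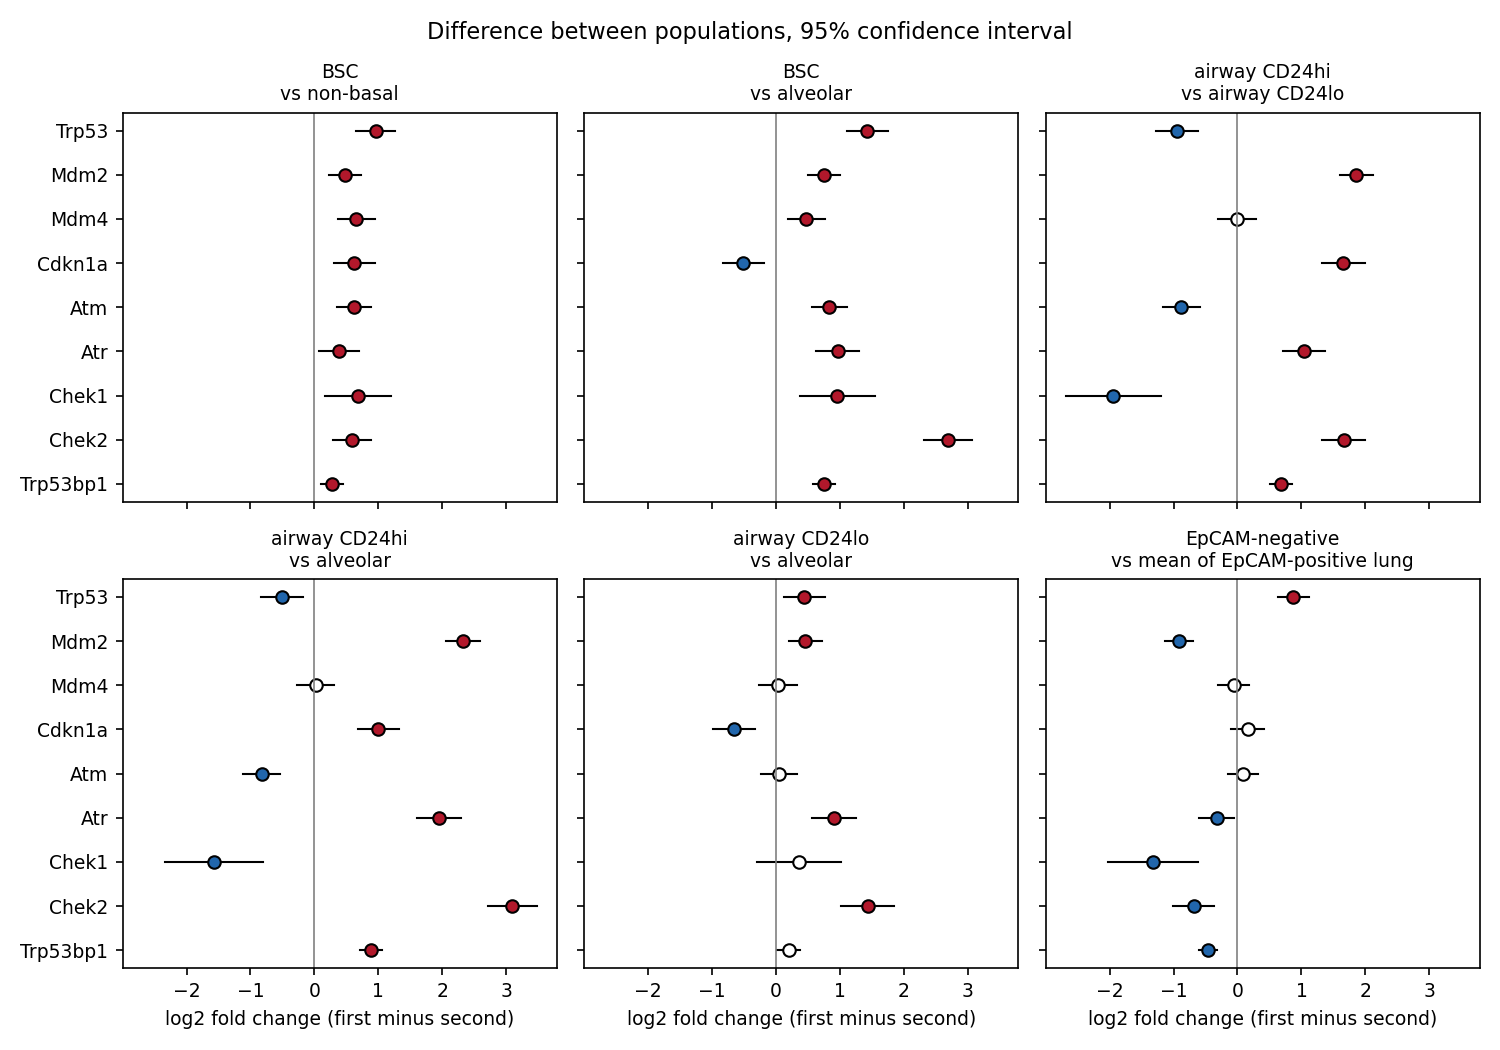
Log2 fold change of each of the 9 genes (horizontal axis, first population minus second) in 6 comparisons, with 95% confidence intervals as lines, red for higher and blue for lower at an adjusted p under 0.05 and white for not called (edgeR). BSCs were higher than non-basal cells for 9 of 9 genes, whereas airway CD24hi cells were higher for 5 and lower for 3 against airway CD24lo and against alveolar cells; intervals are not adjusted for the number of genes.

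The 2 luminal airway populations of the same lungs differed in both directions. In airway CD24hi cells 5 of 9 genes were higher and 3 were lower than in airway CD24lo cells, where 55.0% of genes tested were called, 27.8% higher and 27.2% lower. *Mdm2* rose by 1.86 (SE 0.12, adjusted p = 1.42e-09), *Chek2* by 1.66 (SE 0.16, adjusted p = 1.15e-07) and *Cdkn1a* by 1.66 (SE 0.16, adjusted p = 9.04e-08) on the log2 scale (edgeR), 3.63-fold, 3.16-fold and 3.15-fold. *Atr* rose by 1.03 (SE 0.16, adjusted p = 2e-05) and *Trp53bp1* by 0.68 (SE 0.08, adjusted p = 1.55e-06). The genes that fell were *Chek1*, at -1.94 (SE 0.35, adjusted p = 0.000154), *Trp53*, at -0.95 (SE 0.16, adjusted p = 5.21e-05), and *Atm*, at -0.88 (SE 0.14, adjusted p = 2.88e-05). The libraries of the 2 populations did not overlap for any of these 8 genes, and each moved the same way in 3 of 3 mice. *Mdm4* differed by -0.01 (95% confidence interval -0.31 to 0.29). All 8 calls held in each alternative tried for this comparison, including without each library in turn. Without airway CD24hi replicate 1, which stood apart, *Atr* was at 1.24, *Mdm2* at 1.93, *Cdkn1a* at 1.58 and *Trp53* at -1.19. Markers of other cells moved with this comparison, with 5 of 5 alveolar type 2 markers (sums of 1427 to 2663 RPKM against 6048 to 8628 RPKM), 5 of 5 fibroblast and 3 of 5 pericyte markers lower in airway CD24hi cells. Basal cell markers were lower in 4 of 5 and higher in 1. Club cell markers were lower in 5 of 5 and ciliated cell markers higher in 5 of 5, and 4 of 14 dissociation genes were higher and 2 lower. Their part in the differences was not tested.

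The ratio of genes within a library does not depend on the scaling between libraries. *Mdm2* to *Trp53*, the ligase gene to its substrate gene, was 7.73 to 14.1 in the airway CD24hi libraries and 0.793 to 1.81 in the other 15. *Cdkn1a* to *Trp53* was 12.8 to 17.2 in airway CD24hi cells and 1.36 to 6.49 elsewhere. *Atr* to *Atm* was 5.27 to 6.23 in airway CD24hi cells and 0.677 to 1.65 elsewhere. *Chek2* to *Chek1* had means of 54.0 in airway CD24hi and 9.85 in EpCAM-negative cells against 1.68 to 5.94 elsewhere, where the few *Chek1* reads make the ratio in lung imprecise. In BSCs, where *Trp53* and *Atm* were highest, the first 3 ratios were 0.987, 1.39 and 0.903.

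**Figure D3:**
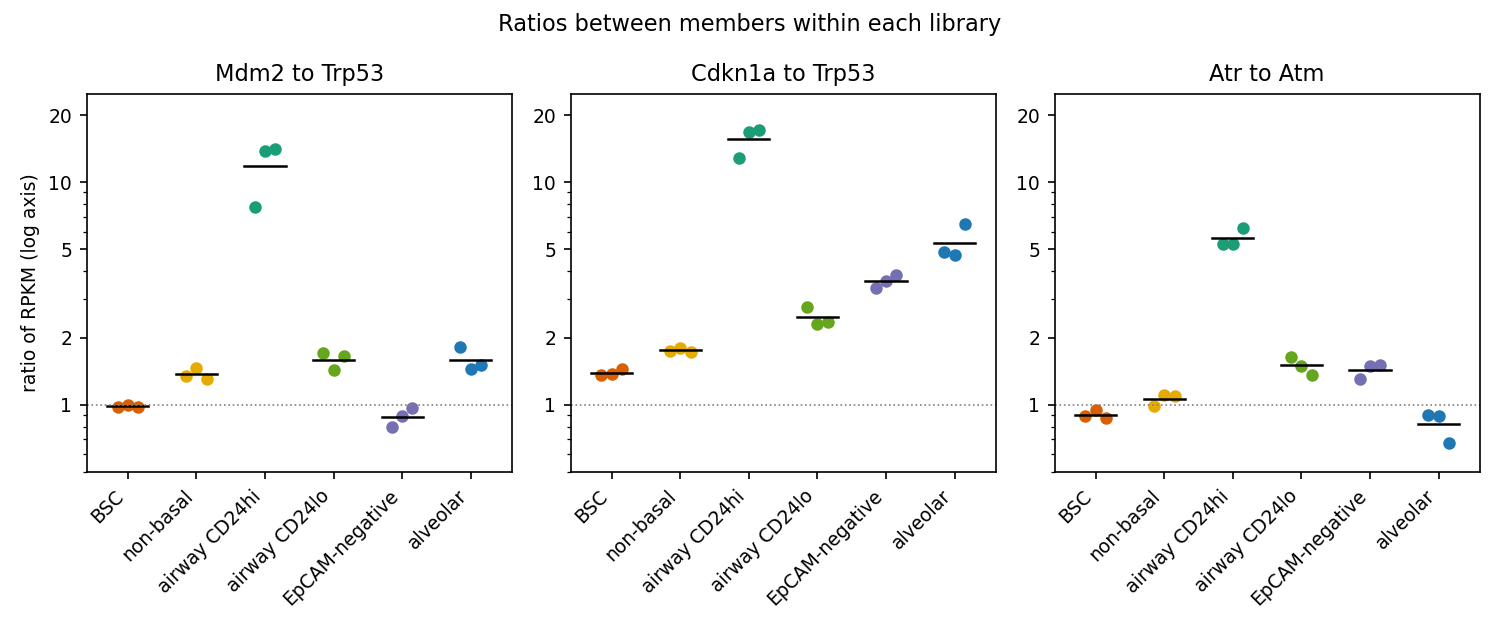
Ratio of RPKM values within each library (log axis) for *Mdm2* to *Trp53*, *Cdkn1a* to *Trp53* and *Atr* to *Atm*, with dots for libraries and lines for means. The 3 airway CD24hi libraries lie above the other 15 in each panel, at 7.73 to 14.1 for *Mdm2* to *Trp53* and 5.27 to 6.23 for *Atr* to *Atm*.

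Against alveolar cells, the airway CD24hi population again had 5 genes higher and 3 lower, where 61.9% of genes tested were called, 30.5% higher and 31.4% lower. *Chek2* differed by 3.10 (SE 0.18, adjusted p = 7.38e-11), 8.55-fold, *Mdm2* by 2.32 (SE 0.12, adjusted p = 1.96e-11), 5.00-fold, and *Atr* by 1.94 (SE 0.16, adjusted p = 8.08e-09), 3.85-fold. *Cdkn1a* differed by 1.00 (SE 0.15) and *Trp53bp1* by 0.88 (SE 0.08), whereas *Chek1* was lower by 1.58 on the log2 scale (SE 0.36), *Atm* by 0.83 (SE 0.14) and *Trp53* by 0.50 (SE 0.16, adjusted p = 0.00995, edgeR). The fall of *Trp53* was seen in 2 of 3 mice, the groups overlapped, and the call was lost with library size alone (-0.19, adjusted p = 0.344), in a fit of only these libraries (-0.43, adjusted p = 0.0645) and without airway CD24hi replicate 2 (-0.40, adjusted p = 0.056) or 3 (-0.39, adjusted p = 0.055). Of the dissociation genes 10 of 14 were higher and 2 lower in airway CD24hi cells, with summed levels of 8720 to 9372 RPKM. Markers of other cells moved as well, with 4 of 5 fibroblast and 2 of 5 leukocyte markers lower and 0 higher. Club cell markers were higher in 5 of 5 and basal cell markers in 4 of 5, with 0 lower. The part of these lists was not tested. This comparison, that of BSCs and that of airway CD24lo cells share the same 3 alveolar libraries, so they are not independent.

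Airway CD24lo cells differed less from alveolar cells. Here 4 genes were higher and *Cdkn1a* was lower, where 48.4% of genes tested were called, 24.2% in each direction. *Chek2* differed by 1.43 (SE 0.20, adjusted p = 9.19e-06), *Atr* by 0.91 (SE 0.16, adjusted p = 0.000159), *Mdm2* by 0.46 (SE 0.12, adjusted p = 0.00395) and *Trp53* by 0.45 (SE 0.15, adjusted p = 0.0244, edgeR). *Cdkn1a* was at -0.65 (SE 0.16, adjusted p = 0.00202). For these 5 genes the libraries of the populations did not overlap. Of the dissociation genes 9 of 14 were higher and 2 lower, with summed levels of 6867 to 7489 RPKM in airway CD24lo cells. Of the proliferation markers 1 of 10 was higher and 4 lower, and 3 of 5 pericyte and 3 of 5 endothelial markers were higher with 0 lower. Fibroblast markers went the other way, with 4 of 5 lower and 1 higher, and 5 of 5 basal, 5 of 5 club and 5 of 5 ciliated cell markers were higher. Ciliated cell markers had sums of 83.6 to 176 RPKM in airway CD24lo cells against 5.70 to 7.59 RPKM in alveolar cells. The part of these lists was not tested. *Trp53bp1* (0.20, adjusted p = 0.0585), *Chek1* (0.36, 95% confidence interval -0.29 to 1.02), *Atm* (0.05) and *Mdm4* (0.03) did not pass. *Trp53* missed the threshold without airway CD24lo replicate 1 (0.32, adjusted p = 0.126), without alveolar replicate 1 (0.38, adjusted p = 0.0987) and without alveolar replicate 3 (0.46, adjusted p = 0.0517), and 6 alternatives took *Trp53bp1* past it (edgeR). Over the left-out libraries *Mdm2* ran from 0.27 to 0.58 and kept its call.

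EpCAM-negative cells, which carry fibroblast and pericyte markers, were compared with the mean of the 3 EpCAM-positive lung populations. Here *Trp53* alone was higher, by 0.88 (SE 0.12, adjusted p = 3.21e-06, edgeR), with its libraries above all 9 of the others, and 5 genes were lower, where 69.0% of genes tested were called, 35.5% higher and 33.4% lower. *Chek1* was at -1.32 (SE 0.33, adjusted p = 0.0018), *Mdm2* at -0.92 (SE 0.10, adjusted p = 2.86e-07), *Chek2* at -0.69 (SE 0.15, adjusted p = 0.000586), *Trp53bp1* at -0.46 (SE 0.07, adjusted p = 1.22e-05) and *Atr* at -0.33 (SE 0.13, adjusted p = 0.0346). The libraries overlapped for all 5. *Mdm2* was at 18.9 to 20.2 RPKM in EpCAM-negative and 18.5 to 20.1 RPKM in alveolar cells. *Chek2*, at 1.69 to 2.24 RPKM against 0.719 to 1.31 RPKM, and *Atr*, at 3.52 to 3.95 RPKM against 1.99 to 2.71 RPKM, were above alveolar cells without overlap. *Chek1*, at 0.179 to 0.213 RPKM, overlapped airway CD24hi cells. *Cdkn1a* (0.16), *Atm* (0.09) and *Mdm4* (-0.06) did not pass. The fall of *Atr* was lost with limma voom, DESeq2, RLE factors, library size alone and a fit of only these libraries, and without airway CD24hi replicate 2, alveolar replicate 1 or 2 or any EpCAM-negative library (adjusted p of 0.0525 to 0.127). The dissociation list was again higher, in 9 of 14 genes with 0 lower, and 5 of 10 proliferation markers were lower with 0 higher. Their part was not tested.

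The rest of the pathway was read from lists of its genes, whose counts are set beside the share of all genes called. In EpCAM-negative cells against the EpCAM-positive mean, 3 of 5 endothelial markers were higher and 0 lower, with sums of 154 to 257 RPKM that overlapped the 121 to 281 RPKM of airway CD24lo cells, and 3 of 5 leukocyte markers were higher and 1 lower. The leukocyte sums were nevertheless low, at 235 to 311 RPKM in EpCAM-negative against 36539 to 44271 RPKM in alveolar cells. BSCs had 9 of 27 further p53 target genes higher and 3 lower than non-basal cells, and 14 higher and 5 lower than alveolar cells. The shares called were 44.4% and 70.4%, near the 48.2% and 66.1% of all genes. The median log2 fold changes were 0.19 and 0.36, beside -0.02 and -0.09 over all genes tested. Against non-basal cells *Phlda3*, an inhibitor of AKT signalling, rose by 2.18 (SE 0.20), and *Perp*, a desmosome protein needed for adhesion in stratified epithelia, by 1.48 (SE 0.16), from 146 to 408 RPKM. *Sesn1* and *Pmaip1*, the gene of the BH3-only protein NOXA, each rose by 1.30. Against alveolar cells *Perp* rose by 4.202 (SE 0.18), *Pmaip1* by 4.12 (SE 0.26) and the death receptor gene *Tnfrsf10b* by 3.51 (SE 0.23), whereas *Gdf15*, a secreted stress factor, fell from 21.1 RPKM in alveolar cells to 1.82 RPKM in BSCs.

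In airway CD24hi cells the p53 targets moved in both directions. Against airway CD24lo cells 7 of 27 were higher and 12 lower (25.9% and 44.4%, beside 27.8% and 27.2% of all genes), with a median of -0.22 beside -0.06 over all genes tested. *Polk*, a translesion DNA polymerase, rose by 1.71 (SE 0.15), *Trp53inp1* by 1.66 (SE 0.31, with airway CD24hi libraries from 23.0 to 90.4 RPKM and replicate 1 lowest) and *Phlda3* by 1.495 (SE 0.20), and *Eda2r* was at -1.92 (SE 0.41) on low levels of 0.0990 and 0.385 RPKM. Against alveolar cells 13 were higher and 9 lower (81.5% called, beside 61.9% of all genes, median 0.32), led by *Polk* (2.72), *Phlda3* (2.41), *Fas* (2.32) and *Trp53inp1* (2.15). Airway CD24lo cells had 12 higher and 5 lower than alveolar cells (63.0% called, beside 48.4%, median 0.36), with *Tnfrsf10b* at 2.08, *Pmaip1* at 2.02, *Perp* at 1.77 and *Gdf15* at -2.01. In EpCAM-negative cells 9 were higher and 11 lower (74.1% called, beside 69.0%, median 0.01), with *Eda2r* at 4.43, *Sesn1* at 1.65, *Bbc3* at -1.76 and *Perp* at -3.26.

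**Figure D4:**
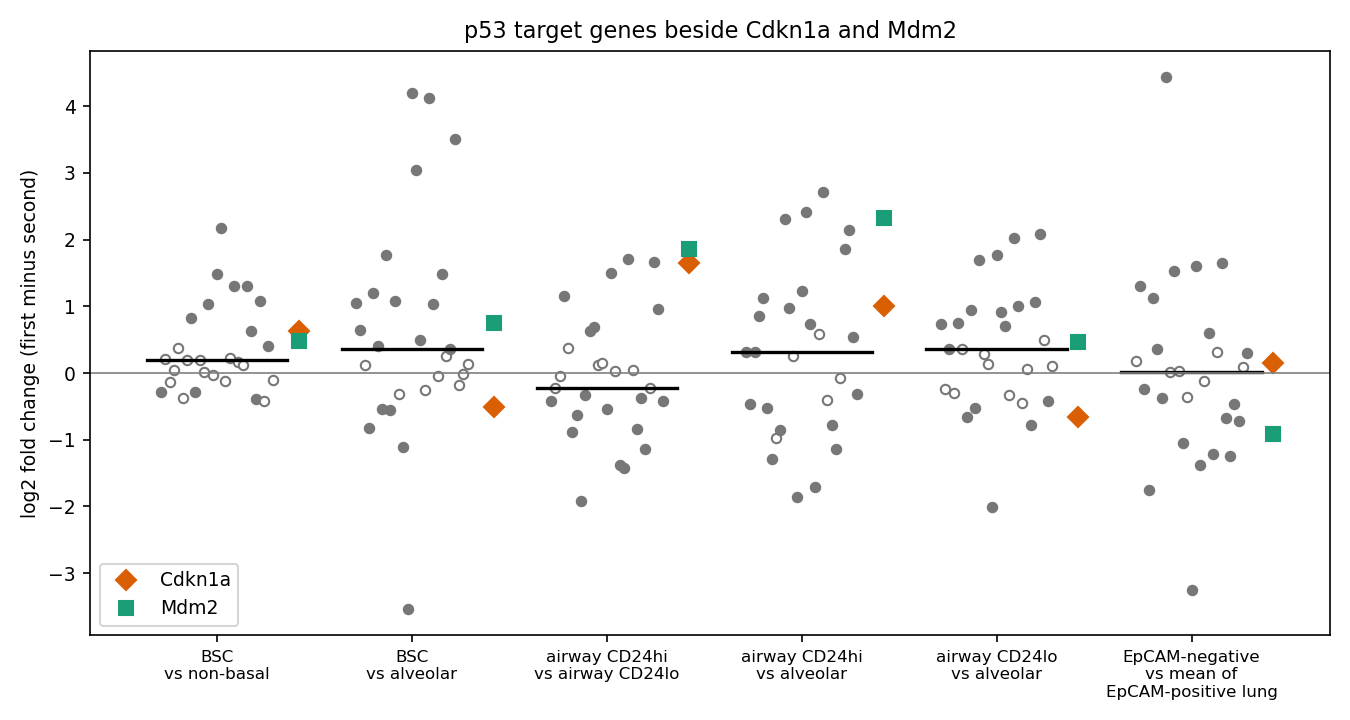
Log2 fold change (first population minus second) of 27 p53 target genes in 6 comparisons, with filled grey dots for an adjusted p under 0.05 (edgeR), open dots for not called and black lines for medians, beside *Cdkn1a* (diamonds) and *Mdm2* (squares). The medians lie between -0.22 and 0.36, and in airway CD24hi against airway CD24lo cells *Mdm2* is at 1.86 and *Cdkn1a* at 1.66.

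The relatives of p53 separated the populations more sharply than *Trp53* did. *Trp63*, the master regulator of basal cells, was at 97.6 ± 9.40 RPKM in BSCs, 12.4 ± 4.11 in non-basal and 9.08 ± 2.59 RPKM in airway CD24lo cells, and at most at 0.934 RPKM on average elsewhere (SD, n = 3 each). *Trp73*, which drives the multiciliated programme, was at 38.8 ± 3.74 RPKM in airway CD24hi cells, 4.38 ± 2.32 in airway CD24lo and 2.11 ± 0.337 RPKM in BSCs, and at 0.306 ± 0.0850 RPKM in alveolar cells (SD, n = 3 each). In BSCs *Trp63* was thus above *Trp53* per length, and in airway CD24hi cells *Trp73* was. Of the 14 genes of the p53 family and its regulators 13 were tested, and *Cdkn2a*, with at most 6 reads in any library, was not. The shares of the 13 called in BSCs, 53.8% against non-basal and 69.2% against alveolar cells, were near the 48.2% and 66.1% of all genes. In BSCs 5 of 13 were higher and 2 lower against non-basal cells and 8 higher and 1 lower against alveolar cells, including *Ppp1r13l*, the gene of the p53 inhibitor iASPP (1.34 and 2.71), and *Crebbp*, an acetyltransferase that acts on p53 (0.61 and 1.53). In airway CD24hi against airway CD24lo cells 4 were higher and 4 lower (61.5% called, beside 55.0% of all genes), with *Trp53bp2*, the gene of the p53 partner ASPP2, at 1.24 (SE 0.08).

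**Figure D5:**
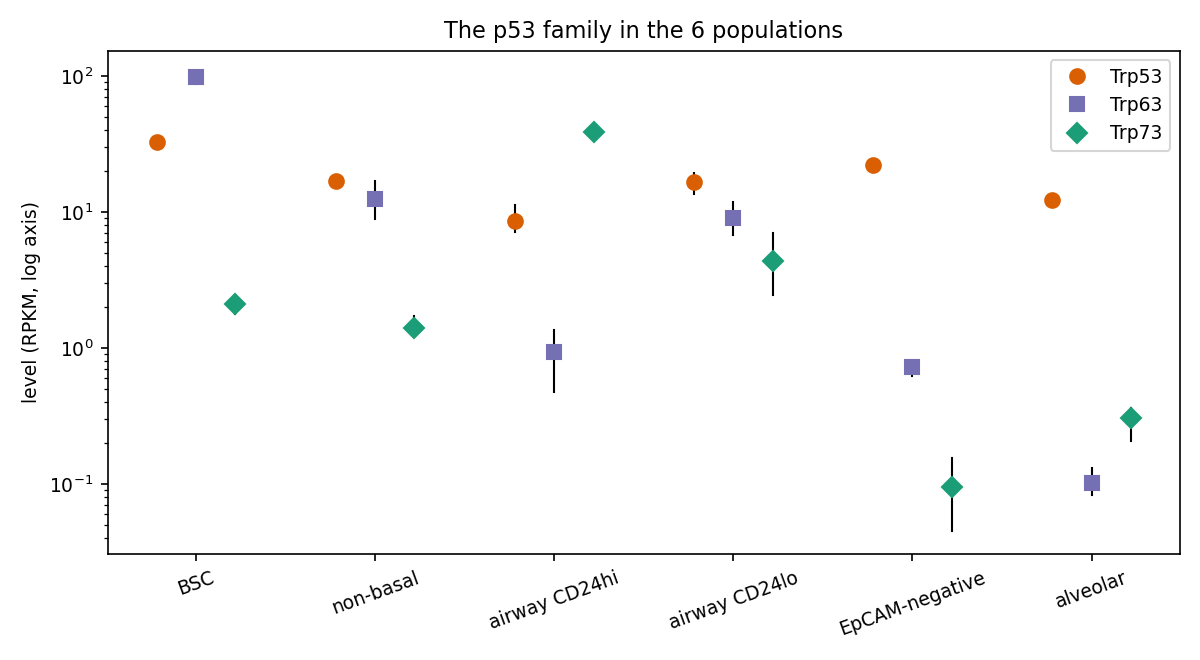
Mean level per length (RPKM, log axis) of *Trp53*, *Trp63* and *Trp73* in each population, with lines from the lowest to the highest of the 3 libraries. *Trp63* is highest in BSCs (97.6 RPKM), *Trp73* in airway CD24hi cells (38.8 RPKM), and *Trp53* spans only 8.61 to 32.9 RPKM.

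Among 10 genes that work beside ATM at double-strand breaks, BSCs had 7 higher and 1 lower than alveolar cells, with *Rif1*, a partner of 53BP1, at 1.59 (SE 0.24), and *Rad50* and *Mre11a* of the MRN complex, which senses breaks, at 1.07 (SE 0.10) and 0.85 (SE 0.10). Against non-basal cells 3 were higher and 0 lower: *Rad50* (0.55), *Mdc1* (0.51), the mediator that binds phosphorylated H2AX, and *Mre11a* (0.47). Airway CD24hi cells had 7 higher and 0 lower than airway CD24lo cells and 6 higher and 0 lower than alveolar cells, led in both by *Paxip1* (1.54 and 1.09), *H2ax* (0.92 and 0.98) and *Mdc1* (0.71 and 0.96). Airway CD24lo against alveolar cells gave 2 higher and 3 lower, and EpCAM-negative cells 1 higher (*Rad50*, 0.96) and 5 lower, among them *Rnf8*, a ubiquitin ligase of the break response (-1.15). *Atm* itself was lower in airway CD24hi cells in both of the comparisons in which 7 and 6 of these genes were higher. The share of the 10 called was 80% in BSCs against alveolar cells, beside 66.1% of all genes, and 30% against non-basal cells, beside 48.2%. It was 70% and 60% in airway CD24hi cells against airway CD24lo and alveolar cells, beside 55.0% and 61.9%, and 50% and 60% in the last 2 comparisons, beside 48.4% and 69.0%.

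Of 13 genes around ATR, BSCs had 4 higher and 0 lower than non-basal cells, namely *Clspn*, the CHK1 adaptor claspin (1.31), the fork protection genes *Timeless* (1.30) and *Tipin* (0.53), and *Topbp1*, an ATR activator (0.69). Against alveolar cells 6 were higher and 2 lower, with *Clspn* at 3.18 (SE 0.29). Airway CD24hi cells, in which *Atr* was highest, had 4 higher and 4 lower than airway CD24lo cells, and *Atrip*, the obligate partner of ATR, was at -0.55 (SE 0.13) in that comparison. Against alveolar cells they had 4 higher and 6 lower, and airway CD24lo cells had only *Topbp1* higher (0.34). EpCAM-negative cells had 8 higher and 1 lower, with *Timeless* at 1.14, *Tipin* at 0.61 and *Rpa3* at -0.85. The share of the 13 called in BSCs was 30.8% against non-basal and 61.5% against alveolar cells, below the 48.2% and 66.1% of all genes. It was 61.5% and 76.9% in airway CD24hi cells against airway CD24lo and alveolar cells, beside 55.0% and 61.9%, 7.69% in airway CD24lo cells, beside 48.4%, and 69.2% in EpCAM-negative cells, beside 69.0%.

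The last list held 10 genes of cell cycle control, on which the checkpoint kinases act directly or through other proteins. BSCs had 6 of 10 higher and 1 lower than non-basal cells, with the CDK1 inhibitory kinase gene *Wee1* at 1.18 (SE 0.15), the phosphatase gene *Cdc25b* at 1.17 (SE 0.18) and *Plk1* at -0.74 (SE 0.14). Against alveolar cells 5 were higher and 2 lower, with *Plk1* at 4.29, *Ccnb1* at 2.93 and *Cdk1* at 2.85, whereas *Cdc25b* was at -0.66. Airway CD24hi cells had 1 higher and 5 lower against both airway CD24lo and alveolar cells, with *Plk1* at -2.61 against airway CD24lo cells and, in the order of the comparisons, *Cdc25b* at -2.04 and -3.24, *Cdk2* at -1.04 and -2.02 and *Cdc25a* at -1.15 and -1.95. Airway CD24lo against alveolar cells gave 2 higher and 4 lower, with *Plk1* at 2.95 and *Cdc25b* at -1.20. EpCAM-negative cells also had 2 higher and 4 lower, with *Cdk1* at -2.51. The share of the 10 called was 70% in BSCs against each of non-basal and alveolar cells, beside 48.2% and 66.1% of all genes, and 60% in airway CD24hi cells against each neighbour, beside 55.0% and 61.9%. It was 60% in each of the last 2 comparisons, beside 48.4% and 69.0%. Proliferation markers were lower in airway CD24hi cells, with 0 higher and 7 lower of 10 in both comparisons and summed levels of 36.4 to 39.8 RPKM in airway CD24hi cells.

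In mouse 1 alone, as values without a test, the median log2 fold changes of the 5 lists in BSCs against non-basal cells were 0.11 (p53 targets), 0.26 (p53 family), 0.18 (ATM), 0.20 (ATR) and 0.86 (cell cycle), where all 3 mice gave 0.19, 0.23, 0.18, 0.23 and 0.71. Against alveolar cells they were 0.31, 0.57, 0.59, 0.37 and 0.61, where all 3 mice gave 0.36, 0.62, 0.63, 0.33 and 0.52. The medians of the proliferation and dissociation lists were 1.29 and 0.72 against non-basal cells in mouse 1 alone, beside 1.08 and 0.66 in all 3 mice, and 2.17 and 1.13 against alveolar cells, beside 1.91 and 1.40.

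Across the 18 libraries the log2 CPM values of *Chek2* and *Trp53bp1* had the highest Pearson r of any pair among the 9, at 0.91, followed by *Mdm2* and *Atr* at 0.89 and *Atm* and *Chek1* at 0.85. The lowest were those of *Cdkn1a* with *Chek1* (-0.79) and with *Atm* (-0.74) and of *Mdm2* with *Atm* (-0.53). These points share 6 populations and their libraries, so the values describe the populations. Among 12111 genes outside the 9 with a mean of at least 5 CPM, the nearest pattern to *Trp53* was that of *Unc5b* (r = 0.98), to *Mdm2* that of *Odf2* (0.99), to *Cdkn1a* that of *Zfp334* (0.95) and to *Mdm4* that of *Ino80d* (0.95). The nearest to *Atm* was *Tmpo* (0.96), to *Atr* AW554918 (0.96), to *Chek1* *Tab3* (0.94), to *Chek2* *Ddr1* (0.98) and to *Trp53bp1* *Setdb1* (0.98).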

How the data were processed

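RNA from 18 libraries of 6 sorted mouse populations was analysed. The authors mapped single-end reads onto mm10 (Rsubread), assigned them to Entrez genes (featureCounts) and deposited the raw counts with a length for each of 27179 genes. The series-wide table repeated these counts and was left aside. The 17989 genes whose CPM exceeded 0.2 in 3 libraries or more were normalised with TMM factors and tested in R 4.3.3 with edgeR 4.0.16 (glmQLFit, glmQLFTest) in 1 fit of all libraries with a mean for each population, with Benjamini-Hochberg adjustment over all genes tested and a threshold of 0.05. RPKM used the deposited length and TMM library sizes, and correlations used log2 CPM with a prior count of 2. Libraries were grouped by their labels, which give separate mice.

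The genes and lists were chosen with earlier results of these data known, so their counts describe these data. All 9 genes are named in each comparison, and from each list up to 4 genes with the largest absolute log2 fold change among those called with a mean of at least 1 CPM. Chromosomes and positions are those of GRCm38.p6, and gene overlaps those of the GENCODE annotation of that build. Intervals are 95% confidence intervals. The alternatives were voom in limma 3.58.1, DESeq2 1.42.0, a replicate block, a correction for gene length, each library left out in turn, fits restricted to the compared libraries, other scaling (RLE or plain library size) and other filters (a CPM of 1, or none). Tracheal mouse 1 alone and mice 2 and 3 alone were added after the sex-linked counts were seen. Labels give the same number to libraries of 1 mouse. Deviations from the population means of BSC and non-basal libraries of mice 1, 2 and 3 correlated at 0.34, 0.12 and 0.22, and those of lung pairs at -0.06 to 0.28. No replicates were as close as counting noise alone would make them (chi-square per degree of freedom of at least 3.50). Depth was lower in lung, and the workflow was tested on simulated data.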

Additional observations from a re-analysis of the deposited data

How the results depend on the processing

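The 9, 9, 8, 8, 5 and 6 calls among the 9 genes in the 6 comparisons stayed within 1.5 times of those counts under every other setting but 1 and without each library, and 863 of 936 single values kept their direction and their side of the threshold. The exception took mouse 1 as the only tracheal mouse: 1 of 9 genes and 3325 genes in all, in place of 8668, were called between BSCs and non-basal cells, a fit in which each of these populations is 1 library assumed to vary like the other groups, so that its counts say nothing of stability.

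Signs changed only for differences that had not been called. *Mdm4* changed sign between airway CD24hi and CD24lo cells with library size alone (0.29), the length correction (0.050) and the block with it (0.045), and over the left-out libraries ran from -0.12 to 0.16. Between airway CD24hi and alveolar cells it changed with limma voom (-0.0065) and the replicate block (-0.00015) and ran from -0.074 to 0.18, between airway CD24lo and alveolar cells from -0.055 to 0.13, and in EpCAM-negative cells it was 0.0084 with library size alone. *Atm* changed sign in airway CD24lo against alveolar cells with the length correction (-0.050) and the block with it (-0.051), ran from -0.017 to 0.12 over the left-out libraries, and in EpCAM-negative cells was at -0.23 and -0.22 (adjusted p = 0.0325, edgeR) under the 2 corrections.

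The replicate block, in which libraries of 1 mouse are paired, changed 1 call: *Atr* between BSCs and non-basal cells (0.38, adjusted p = 0.0508). No paired fit was possible for BSCs against alveolar cells because the mice differ. Library size alone shifted the all-gene median to 0.31 (BSC against non-basal), 0.21 (airway CD24hi against CD24lo) and 0.29 (airway CD24hi against alveolar cells), and the share called higher among called genes from 45.5% to 72.2%, from 50.5% to 68.4% and from 49.2% to 65.4%. It took *Mdm4* past the threshold between airway CD24hi and alveolar cells (0.34, adjusted p = 0.0426, edgeR). *Cdkn1a* in EpCAM-negative cells passed with the length correction (0.28) and without airway CD24lo replicate 1 (0.23). With 4 to 33 reads in lung, *Chek1* had standard errors of up to 0.36 there, the widest of the 9 genes. RNA was measured in resting cells, and p53 protein, its phosphorylation and kinase activity were not.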
